A study of Danio rerio with 75 samples.

Results

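The genes mhc2dab, ciita, cd74a and cd74b act in antigen presentation by class II molecules of the major histocompatibility complex (MHC), and they were followed library by library in brain, liver and skin of ageing zebrafish (Danio rerio). They were taken by symbol from the table of gene counts and are 4 of its 32677 genes. All 4 symbols were found once, all 4 genes passed the filter on low counts in each tissue, and none was at 0 in any grouped library. Their identifiers are ENSDARG00000079105 for mhc2dab, ENSDARG00000090851 for ciita, ENSDARG00000009087 for cd74a and ENSDARG00000036628 for cd74b. The choice was made with the brain comparison of old with young fish in view, in which mhc2dab stood high. Brain values that involve 6, 36 or 42 months are for this reason given as a description, without a test. Skin and liver were tested, though some of their fish also gave brain libraries to that comparison. Coordinates of the genes are not given, since the counts were made on the build Zv9 and the gene table used here belongs to another assembly.

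Class II molecules sit on the surface of dendritic cells, macrophages and B cells, where they show peptides from engulfed proteins to helper T cells. The molecule is a pair of an alpha and a beta chain. In mammals, the transactivator CIITA is recruited to the promoters of class II genes by factors of the RFX, NF-Y and CREB families and sets their transcription, largely in response to interferon gamma. The invariant chain CD74 escorts newly made class II molecules to endosomes, where cathepsins degrade it and free the groove for a peptide. The zebrafish has a pair of invariant chain genes, cd74a and cd74b. In the brain, class II genes are known as genes of microglia and other macrophages. Class II genes of vertebrates occur as families of near copies and are often polymorphic between individuals.

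The study asked how gene expression changes with age. The 73 grouped libraries come from 3 tissues at 5 ages, which were 6, 12, 24, 36 and 42 months, with 4 liver libraries at each of the first 2 ages and 5 libraries in every other group. A further 2 libraries whose labels name both skin and liver were put in no group and were not used. The fish were males with the strain label AB JxTu. No transgene is listed for the grouped fish of 6 and 24 months. Those of 12 months carried Tg(flk:mCherry), those of 36 months Tg(pu.1:GFP) and those of 42 months Tg(wt1a:GFP). The names of the lines give the promoter that drives the reporter, and pu.1 is a gene of myeloid cells. Age and reporter line cannot be told apart, except in the comparison of 24 with 6 months. The labels conflict for a pair of fish, those of replicate 3 of the 6-month skin and replicate 5 of the 12-month brain, since both also gave to the unused libraries, which carry the label Tg(wt1a:GFP). Each 6-month brain library was a pool of 2 fish, so that in brain pooling and age cannot be told apart either. Brain, liver and skin often came from the same fish. Replicate numbers name a library and do not pair the tissues.

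The total count of a library ran from 29006611 to 44324353 for brain, from 31306947 to 58166358 for liver and from 32925263 to 48935972 for skin. Markers of the labelled tissue were checked in each library. Over 16 brain genes the summed level was 14670 to 27020 CPM (reads relative to the library total, which was scaled by TMM factors) in brain libraries and at most 647.8 in the others. Over 16 skin genes it was 47220 to 108100 CPM in skin and at most 7227 elsewhere. Over 16 liver genes it was 17460 to 273400 CPM in 22 liver libraries, 5877 CPM in liver 24 months replicate 1 and at most 11310 CPM elsewhere, so that the latter library was low in markers of its own tissue. The liver libraries stood apart among themselves. The 3 intestine genes fabp2, slc15a1b and cdx1b summed to 1821 to 7208 CPM in 9 of the 23 liver libraries and to 3.52 to 185.7 CPM in the other 14. These 9 were 2 libraries of 6 months, 3 of 12, 1 of 24, 2 of 36 and 1 of 42 months. Liver results are given with all libraries, and some of them also without these 9. For bulk tissue, fewer cells of a type and less RNA per cell cannot be told apart in any of the values below.

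Across tissues, all 4 genes were highest in skin. On the RPKM scale (reads scaled to library size and gene length, which allows genes to be compared), the median over the libraries of skin was 1293 for cd74a, 600.2 for cd74b, 62.9 for mhc2dab and 4.25 for ciita. In brain the medians were 382 for cd74a, 101.5 for cd74b, 19.8 for mhc2dab and 1.67 for ciita, and in liver they were 226, 87.6, 15.1 and 0.907 RPKM in the same order of genes. The order of the genes was thus the same in each tissue, with the invariant chains above the class II chain and the transactivator lowest.

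**Figure D1:**
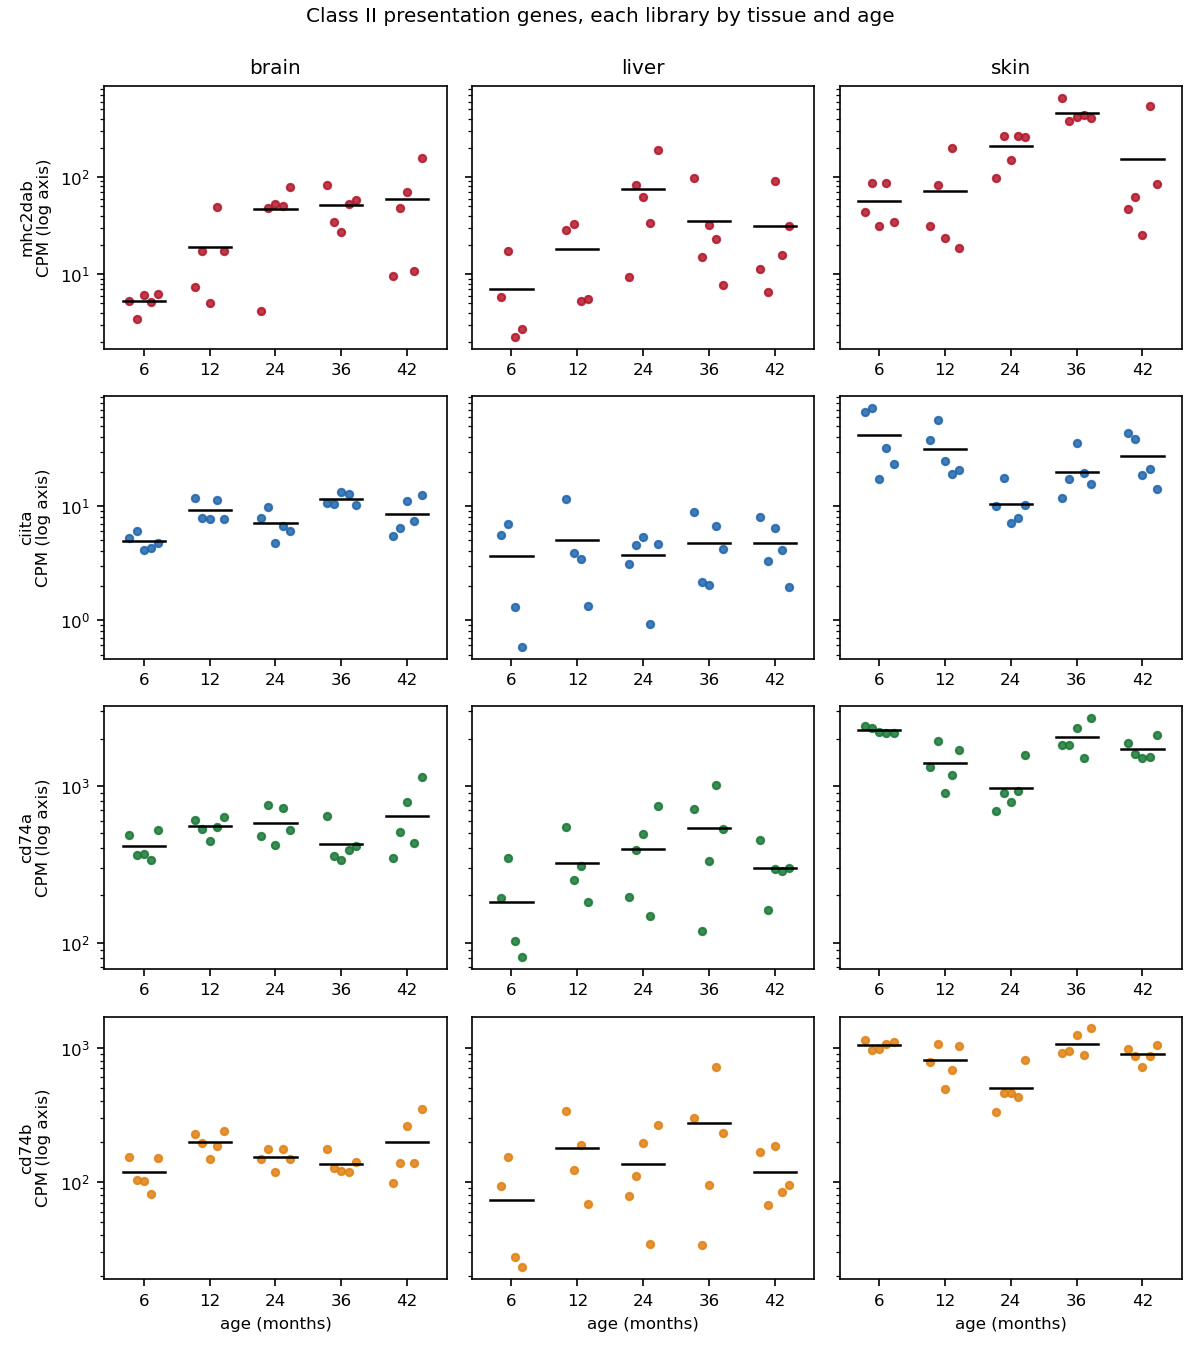
Level of each gene in every library, in CPM on a log axis, by age in months for brain, liver and skin; points are libraries and bars are group means. mhc2dab ran from 3.46 to 6.31 CPM in the 6-month brain and up to 156.7 CPM at 42 months. In brain from 12 months on, cd74a and cd74b spread less within a group, which did not hold in every group of liver and skin.

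mhc2dab, which encodes a class II beta chain, was the member that varied most in the brain, and its level ran higher after 6 months. At 6 months the 5 pools had 5.32, 3.46, 6.11, 5.13 and 6.31 CPM. At 12 months the values were 7.30, 17.4, 5.00, 48.9 and 17.2 CPM, and at 24 months 4.17, 48.5, 52.9, 50.6 and 78.2 CPM. At both ages most fish were above all pools of 6 months, but 1 fish of each age was not. The values at 36 months were 83.4, 34.7, 26.9, 52.2 and 58.3 CPM. Those at 42 months were 9.59, 48.0, 69.6, 10.9 and 156.7 CPM. All 10 libraries of 36 and 42 months were above all 5 of 6 months, but 3 fish of 42 months were within the range of the 12-month fish. The group means were 5.27 ± 1.13 (SD, n = 5), 19.2 ± 17.6, 46.9 ± 26.7, 51.1 ± 22.1 and 59.0 ± 60.3 CPM in the order of age. The SD was thus of the size of the mean at 12 and at 42 months. Against 6 months, the log2 fold change was 1.87 (SE 0.73) at 12 months, 3.15 (SE 0.76) at 24, 3.28 (SE 0.76) at 36 and 3.49 (SE 0.77) at 42 months, and 3.38 (SE 0.72) for the mean of 36 and 42 months. In that last comparison 8.97 percent of the 23028 brain genes were higher with an adjusted p below 0.05, from which nothing is read about the members, since it was used to choose them.

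The only brain comparison outside that choice was 24 against 12 months, both of single fish but of different lines. None of the 4 genes differed there with edgeR's quasi-likelihood test, beside 8.55 percent of all genes, and none had an unadjusted p below 0.05 or was called by DESeq2 or limma voom. The log2 difference of mhc2dab was 1.29 (SE 0.70, adjusted p = 0.263). That of ciita was -0.40 (SE 0.21, adjusted p = 0.25, edgeR). For cd74a it was 0.07 (SE 0.25, adjusted p = 0.895) and for cd74b -0.37 (SE 0.26, adjusted p = 0.392, both edgeR).

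ciita, the transactivator, was low in the brain and moved within a narrow range. It had 4.11 to 5.99 CPM at 6 months, 7.63 to 11.9 at 12, 4.72 to 9.77 at 24, 10.1 to 13.2 at 36 and 5.49 to 12.5 at 42 months. The groups of 12 and 36 months lay wholly above that of 6 months, those of 24 and 42 months did not. Old against young was 1.02 (SE 0.19) on the log2 scale. The invariant chains varied within a group about as much as between ages. cd74a had 336.1 to 520.9 CPM at 6 months and 334.8 to 1141 CPM at 36 and 42 months, and cd74b 82.0 to 152.4 and 98.1 to 351.6 CPM. Old against young was 0.34 (SE 0.22) for cd74a and 0.47 (SE 0.23) for cd74b on the log2 scale. The highest brain value of mhc2dab, cd74a and cd74b came from 1 library, 42 months replicate 5, with 156.7, 1141 and 351.6 CPM.

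In old against young, the comparison used to choose the members, markers of immune cells in brain are given without a test. The median log2 fold change was 0.40 over 23 macrophage and microglia markers, of which 20 were above 0. Over 11 B cell markers it was 0.003, with 6 above 0, beside -0.012 over all genes. In summed levels the groups overlapped. Of 27 macrophage and microglia markers 24 were found, and their summed level was 533.4 to 1158 CPM at 6 months, 719.6 to 866.5 at 12, 678.9 to 942.8 at 24, 536.0 to 744.5 at 36 and 703.1 to 1096 at 42 months. Of these, 1 marker was at 0 in all brain libraries. The 12 B cell markers found, of 15, had a median sum of 91.6 CPM at 6, 98.9 at 36 and 96.9 CPM at 42 months, and the largest sum was 128.9 CPM. The part of these cells in the brain values was not tested.

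In skin, mhc2dab and the other 3 genes went apart. The chain rose at 36 months, while the transactivator and both invariant chains fell at 24 months. The levels of mhc2dab at 6 months were 43.8, 86.3, 31.2, 86 and 34.5 CPM and at 12 months 31.0, 83.1, 23.6, 199.2 and 18.4 CPM. At 12 months 1 fish thus stood at more than the others together. At 24 months the values were 98.4, 266.5, 150.3, 265.9 and 261.3 CPM, and at 36 months 653.3, 376.8, 417.7, 439.3 and 409.6 CPM. Both groups lay wholly above that of 6 months. At 42 months they were 47.3, 62.5, 25.4, 539.1 and 84.1 CPM, so that 4 of the 5 fish were back within or below the 6-month range and the fifth was at the level of the 36-month fish. The group means were 56.4 ± 27.6 (SD, n = 5), 71.1 ± 76.1, 208.5 ± 79.0, 459.3 ± 110.8 and 151.7 ± 217.6 CPM in the order of age.

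Against 6 months, mhc2dab in skin rose by 3.03 on the log2 scale at 36 months (SE 0.73, adjusted p = 0.00658, edgeR). It was the 1 member called there, beside 10.1 percent of the 22429 genes tested that were called higher. Some skin fish of 6, 36 and 42 months also gave brain to the comparison used to choose the members. The skin p-values of mhc2dab at 36 months and for old against young are thus not independent of that choice. Its log2 fold change was 0.33 at 12 months (SE 0.68, adjusted p = 0.808), 1.89 at 24 months (SE 0.70, adjusted p = 0.0593) and 1.43 at 42 months (SE 0.69, adjusted p = 0.196), none of them called by edgeR. The 24-month difference, the only one with no change of line, was called by DESeq2 (1.88, adjusted p = 0.0213) and by limma voom (1.92, adjusted p = 0.0385). The value at 42 months rested on 1 fish and was -0.04 without replicate 4. That at 12 months was -0.54 without replicate 4 of 12 months. For the mean of 36 and 42 months against 6 months the log2 fold change was 2.23 (SE 0.66, adjusted p = 0.0254, edgeR). mhc2dab was the 1 member called in this comparison, beside 7.81 percent of all genes called higher, with 6 of 10 old fish above all young ones. The call was lost when any 1 of the replicates 1, 3 or 5 of 6 months was left out, with an adjusted p of up to 0.0761, and the log2 value ran from 1.49 to 2.41 over the libraries left out.

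ciita in skin ran the other way. It had 66.1, 72.0, 17.2, 31.9 and 23.5 CPM at 6 months and 37.6, 56.2, 24.6, 19.2 and 20.6 CPM at 12 months. At 24 months it had 9.97, 17.4, 7.14, 7.83 and 10.2 CPM, where 4 of the 5 fish were below every 6-month fish and the fifth, at 17.4, was just above the lowest of them. At 36 months it had 11.7, 17.2, 35.7, 19.5 and 15.7 CPM, and at 42 months 43.8, 38.9, 18.7, 21.3 and 14.2 CPM. Both of these groups overlapped with 6 months. At 24 months ciita fell by 2.0 on the log2 scale (SE 0.43, adjusted p = 0.00269, edgeR), from a mean of 42.2 ± 25.2 to 10.5 ± 4.09 CPM (SD, n = 5 each). The call held with each library left out in turn, with -2.26 to -1.73. The differences at 12 months (-0.41, adjusted p = 0.572), 36 months (-1.08, adjusted p = 0.0755) and 42 months (-0.62, adjusted p = 0.36) were not called by edgeR. That at 36 months was called by DESeq2 (-1.11, adjusted p = 0.0428), and by edgeR when replicate 3 of 6 months or replicate 3 of 36 months was left out. Old against young was not called by edgeR (-0.85, SE 0.35, adjusted p = 0.102).

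The invariant chains had their lowest skin levels at 24 months too. cd74a had 2389, 2336, 2197, 2172 and 2174 CPM at 6 months, 1309, 1924, 895.3, 1170 and 1697 CPM at 12 months and 690.4, 898.1, 791.1, 922.6 and 1564 CPM at 24 months. No fish of 12 or 24 months reached the lowest fish of 6 months. At 36 months it had 1830, 1831, 2317, 1492 and 2692 CPM and at 42 months 1884, 1589, 1504, 1514 and 2098 CPM, so that the group of 36 months overlapped with 6 months and that of 42 months did not. The fall at 24 months was 1.21 on the log2 scale (log2 fold change -1.21, SE 0.21, adjusted p = 5.4e-04, edgeR). At 12 months the log2 fold change was -0.69 (SE 0.21, adjusted p = 0.0413, edgeR), a call that was lost in 8 of the 10 fits that left out 1 library. cd74a was the 1 member called at 12 months, beside 4.31 percent of all genes called lower.

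cd74b had 1142, 963.4, 970.8, 1062 and 1102 CPM in the skin at 6 months and 330.3, 460.1, 457.4, 425.6 and 810.1 CPM at 24 months, with no overlap. Its log2 fold change at 24 months was -1.08 (SE 0.21, adjusted p = 0.00145, edgeR), and it held with each library left out, as did that of cd74a. At 12, 36 and 42 months cd74b had 496.0 to 1065, 878.7 to 1388 and 715.4 to 1037 CPM, and all these ranges overlapped with 6 months. The log2 fold changes were -0.37, 0.03 and -0.24, with an adjusted p of 0.28, 0.94 and 0.512 by edgeR. Counted together, 3 of the 4 members were lower at 24 months, beside 9.49 percent of all genes called lower, and DESeq2 and limma voom called all 4, with mhc2dab higher. At 42 months edgeR, DESeq2 and limma voom called 0 members, 0 had an unadjusted p below 0.05, and 8.07 percent of all genes were called by edgeR. For old against young, neither cd74a (-0.27, SE 0.18, adjusted p = 0.32) nor cd74b (-0.10, SE 0.18, adjusted p = 0.745) was called by edgeR.

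**Figure D2:**
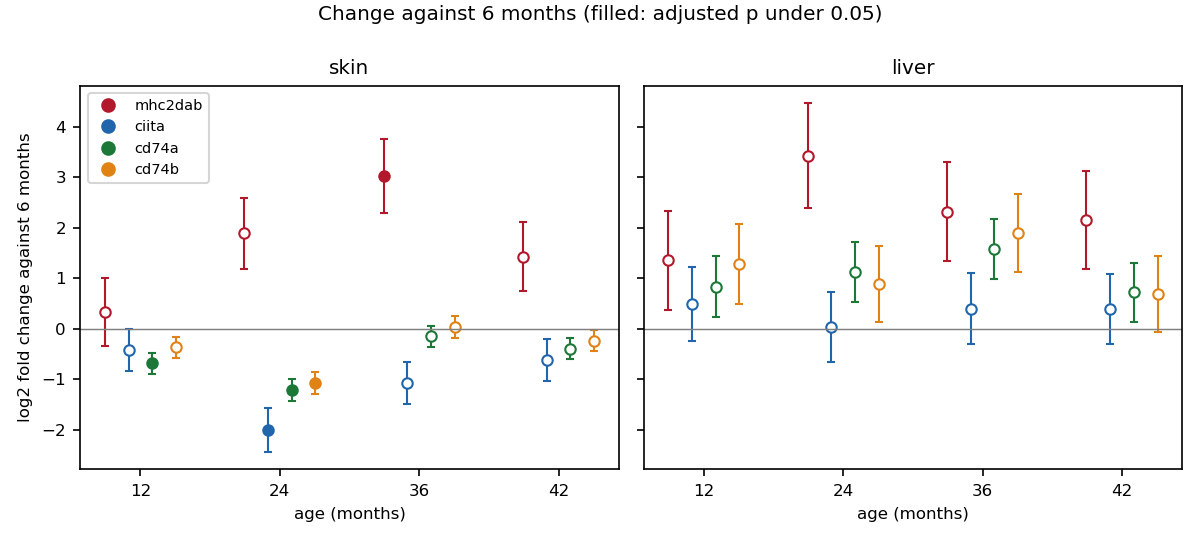
Log2 fold change against 6 months of each gene in skin and liver by age in months; bars are 1 SE of the edgeR fit, and filled points have an adjusted p below 0.05. In skin mhc2dab stood at 3.03 at 36 months while ciita, cd74a and cd74b stood between -2.0 and -1.08 at 24 months, and in liver no point is filled.

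Some markers of immune cells were called in skin. At 24 against 6 months, 10 of 17 T cell markers tested fell and 0 rose (median log2 fold change -0.88), 4 of 10 dendritic cell markers fell and 1 rose (median -0.45), 3 of 23 macrophage markers fell and 1 rose (median -0.06) and 1 of 11 B cell markers fell and 0 rose (median -0.63), all by edgeR. Over all genes 9.49 percent were called lower there, and the macrophage and B cell markers were near that share. In old against young, 6 of 23 macrophage markers rose and 0 fell (median 0.63), and 3 of 11 B cell markers rose and 0 fell (median 0.64). Of 10 dendritic cell markers 2 rose and 2 fell (median -0.09), and of 17 T cell markers 2 rose and 2 fell (median 0.06). In that comparison 7.81 percent of all genes were called higher. Of 11 neutrophil markers 5 rose and 0 fell (median 1.39), and their sum was 138.4 to 227.1 CPM at 6, 205.1 to 292.3 at 36 and 156.4 to 1546 CPM at 42 months. In summed levels the groups overlapped. The macrophage markers, all 24 found with reads in skin, summed to 1618 to 2190 CPM at 6 months, 1588 to 2451 at 24, 1683 to 3049 at 36 and 1706 to 3849 CPM at 42 months. The 11 dendritic cell markers summed to 256.0 to 342.2 CPM at 6 months, 230.0 to 339.0 at 24, 245.5 to 270.0 at 36 and 241.4 to 315.7 CPM at 42 months. The 17 T cell markers summed to 256.4 to 552.8 CPM at 6 and 347.8 to 515.1 CPM at 24 months. The 12 B cell markers summed to 44.6 to 100.2 CPM at 6 months, 38.5 to 58.6 at 24, 48.2 to 512.0 at 36 and 55.1 to 432.0 CPM at 42 months. No range of these lists was apart from that of 6 months. The fish with 539.1 CPM of mhc2dab at 42 months had the lowest macrophage sum of its group, at 1706 CPM, and 104.9 CPM of B cell markers. The skin library with the most B cell markers, 36 months replicate 1 with 512.0 CPM, was also that with the most mhc2dab, with 653.3 CPM. Muscle markers, which come from tissue below the skin, summed to 2721 to 69010 CPM over the skin libraries. The part of any of these cells in the values was not tested.

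In liver the spread within each age was wide, and 0 members were called by edgeR at any age. mhc2dab had 5.76, 17.4, 2.27 and 2.75 CPM at 6 months and 28.5, 32.8, 5.28 and 5.52 CPM at 12 months. At 24 months it had 9.27, 83.5, 62.1, 33.5 and 190.7 CPM, where 4 of 5 fish were above all young ones. At 36 months it had 97.8, 14.9, 32, 23.2 and 7.70 CPM and at 42 months 11.3, 6.54, 91.9, 15.8 and 31.1 CPM, so that both groups overlapped with 6 months. Against 6 months its log2 fold change was 3.43 at 24 months (SE 1.03, adjusted p = 0.067, edgeR), beside 3.55 percent of all genes called. DESeq2 called it, with 3.34 and an adjusted p of 0.00465. Without the 9 libraries high in intestine markers it was 5.17 (SE 1.04, adjusted p = 0.0329, edgeR), which left 2 fish of 6 months and 4 of 24 months. That fit called 418 genes in all. The 2 fish of 6 months left out had the most mhc2dab of that age, 5.76 and 17.4 CPM. The 24-month fish left out had the least of its age, 9.27 CPM. Removing these widens the difference by itself, so that nothing is read from this call. The log2 fold change of old against young was 2.23 (SE 0.92, adjusted p = 0.279, edgeR), beside 0.190 percent of all genes.

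ciita in liver ran from 0.584 to 7.0 CPM at 6 months and from 1.96 to 8.81 CPM at 36 and 42 months, and its log2 difference of old from young was 0.39 (SE 0.62, adjusted p = 0.807, edgeR). cd74a ran from 81.1 to 346.8 CPM at 6 months and from 119.1 to 1005 CPM at 36 and 42 months, with a difference of 1.15 (SE 0.54, adjusted p = 0.342, edgeR). cd74b ran from 23.3 to 152.3 and from 34.2 to 716.5 CPM, with a difference of 1.29 (SE 0.70, adjusted p = 0.417, edgeR). For all 3 genes the groups overlapped. At an unadjusted p below 0.05, the number of members of 4 was 0 at 12 months, 1 at 24, 3 at 36, 1 at 42 months and 2 for old against young. The share of all genes at that threshold was not computed, so that nothing is read from these counts. At an adjusted p below 0.05, edgeR called 0.0380, 0.0855 and 0.105 percent of all genes at 12, 36 and 42 months. DESeq2 and limma voom called 0 members at these ages.

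Within the 6-month livers the genes followed the split by intestine markers. The 2 fish high in these markers had 5.58 and 7.0 CPM of ciita, 93.1 and 152.3 of cd74b, 193.9 and 346.8 of cd74a and 5.76 and 17.4 CPM of mhc2dab. The other 2 had 1.3 and 0.584, 27.6 and 23.3, 102.5 and 81.1, and 2.27 and 2.75 CPM in the same order. For each gene both fish high in the markers were above both others. These fish also had more ciita in skin, 66.1 and 72.0 CPM against 31.9 and 23.5 CPM in the others. The same held in skin for cd74a, but not for mhc2dab or cd74b. Whether the split by intestine markers is also a split between fish was not tested. At 24 and at 42 months the fish high in these markers ranked 3 of 5 for ciita in skin. Over all ages the medians of the 9 high and the 14 other libraries were 5.58 and 2.71 CPM for ciita, 185.1 and 89.5 for cd74b, 309.2 and 292.0 for cd74a and 17.4 and 23.5 CPM for mhc2dab. Over liver, 0 of 23 macrophage and 0 of 10 B cell markers tested were called in old against young by edgeR, with median log2 fold changes of 0.70 and 1.05. The part of intestine or of these cells in the liver values was not tested.

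**Figure D3:**
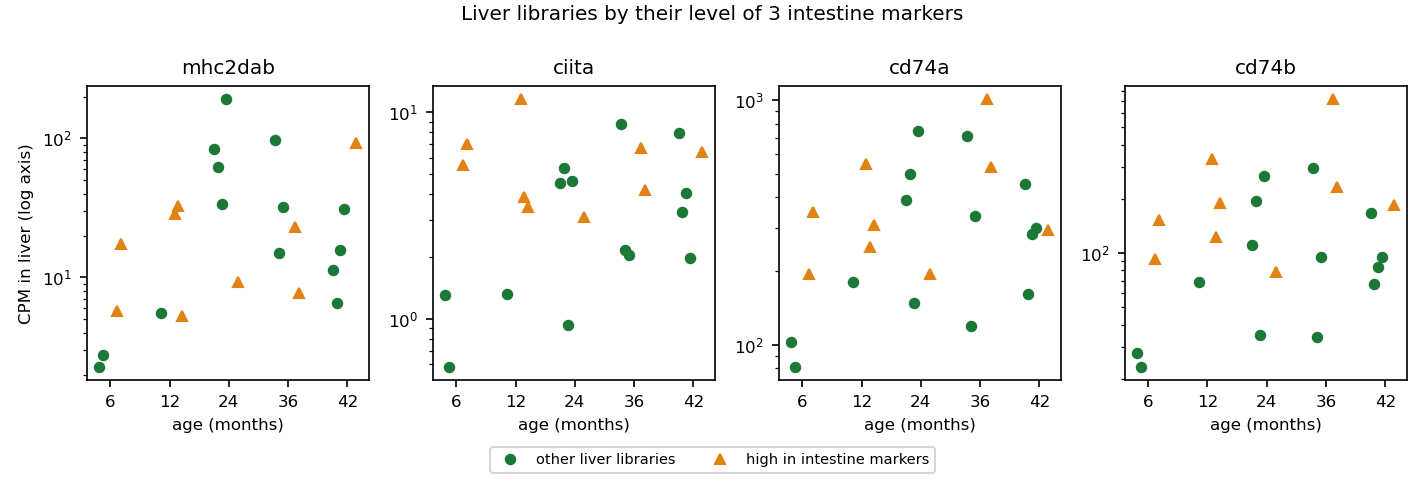
Level of each gene in the liver libraries, in CPM on a log axis, by age in months; triangles are the 9 libraries with 1821 to 7208 CPM over 3 intestine markers and circles are the other 14. At 6 months both triangles are above both circles for each gene, for ciita 5.58 and 7.0 against 0.584 and 1.3 CPM.

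The tissues were compared at 24 months, where the fish carry no listed transgene, in a fit over all 73 libraries. In skin all 4 members were higher than in brain, beside 34.3 percent of all genes called higher. The log2 difference was 2.61 for mhc2dab (SE 0.81, adjusted p = 0.00399), 1.04 for ciita (SE 0.47, adjusted p = 0.0478), 1.2 for cd74a (SE 0.37, adjusted p = 0.00374) and 2.15 for cd74b (SE 0.47, adjusted p = 5.6e-05, all edgeR). The call of ciita was lost in 7 of 10 fits that left out 1 library. In liver 3 members were higher than in brain, beside 36.3 percent of all genes called higher. These were mhc2dab with 2.19 (SE 0.80, adjusted p = 0.0131), cd74a with 0.94 (SE 0.37, adjusted p = 0.0213) and cd74b with 1.33 (SE 0.46, adjusted p = 0.00813), while ciita differed by 0.57 (SE 0.47, adjusted p = 0.279, all edgeR). The order of liver and brain depended on the scaling for cd74a and ciita. Mean RPKM at 24 months was 452.8 in brain and 394.9 in liver for cd74a, and 1.54 and 1.04 for ciita. In CPM of this fit the means were 379.0 and 724.6 for cd74a, and 4.58 and 6.80 for ciita. For mhc2dab and cd74b liver was above brain on both scales. The tissues share fish, and with the fish as a block in limma voom the difference of cd74a was 0.69 and was not called (adjusted p = 0.0714). Without liver replicate 5, which had 190.7 CPM of mhc2dab, the difference of mhc2dab was 1.37 and was not called (adjusted p = 0.124, edgeR), and those of cd74a and cd74b were not called either.

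Between skin and liver at 24 months 0 members were called by edgeR and 0 had an unadjusted p below 0.05, beside 51.1 percent of all genes called, while limma voom called 1, cd74b, without and with the fish as a block (1.09, adjusted p = 0.0293 with it). The log2 differences were 0.42 for mhc2dab (SE 0.77, adjusted p = 0.677), 0.47 for ciita (SE 0.47, adjusted p = 0.421), 0.26 for cd74a (SE 0.37, adjusted p = 0.575) and 0.82 for cd74b (SE 0.45, adjusted p = 0.126, all edgeR). Single fish with both tissues at any age were compared in CPM scaled over all libraries together. For each of the 4 genes skin was above brain in 13 of 13 fish. Skin was above liver in 17 of 17 fish for mhc2dab and cd74b, in 16 for cd74a and in 15 for ciita. Liver was above brain in 8 of 9 fish for mhc2dab, 7 for cd74b, 6 for cd74a and 4 for ciita, so that the order of these tissues was not the same in all fish.

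Whether the change from young to old fish differed between skin and liver was tested in the same fit, with 36 and 42 months against 6 months. The difference of the log2 changes, skin minus liver, was 0.02 for mhc2dab (SE 0.99, adjusted p = 1), -1.22 for ciita (SE 0.60, adjusted p = 0.288), -1.41 for cd74a (SE 0.47, adjusted p = 0.0873) and -1.38 for cd74b (SE 0.58, adjusted p = 0.193, all edgeR). No member was called at an adjusted p below 0.05, beside 2.93 percent of all genes. An unadjusted p below 0.05 was reached by 3 of 4, and the share of all genes at that threshold was not computed. A fit with the fish as a block called 0 as well. Without the 9 liver libraries high in intestine markers, which left 2 livers of 6 months, ciita (-3.07, adjusted p = 0.00374), cd74a (-2.18, adjusted p = 0.00482) and cd74b (-2.37, adjusted p = 0.00606) were called by edgeR, and mhc2dab was not (-1.27, adjusted p = 0.49). Over all genes that fit called 3251, in place of 743 with all libraries, so that calls were more frequent there in general. The 2 livers of 6 months left were the lowest of that age for each member. Keeping only these lowers the skin minus liver values by itself, so that nothing is read from these calls.

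Since single fish stood out for mhc2dab, it was asked whether they did so in more than 1 tissue. The 12-month fish with 48.9 CPM in brain had 199.2 CPM in skin and 32.8 CPM in liver, each the highest of its group. The 42-month fish with 539.1 CPM in skin had 91.9 CPM in liver, both again the highest. The 36-month fish with 653.3 CPM in skin had 83.4 CPM in brain, likewise both the highest. Not all fish did so. The 36-month fish with the most mhc2dab in liver, 97.8 CPM, had the least in skin, 376.8 CPM. The 24-month fish with the most in brain, 78.2 CPM, ranked 4 of 5 in liver. Among fish with both tissues, the highest of its age in brain was also the highest in skin in 2 of 3 cases, and in liver in 1 of 2. The highest in liver was also the highest in skin in 3 of 4 cases.

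Over fish with both tissues, the log2 deviations from the mean of the tissue and age group had a Pearson r of 0.617 and a Spearman's rho of 0.588 for mhc2dab between brain and skin (13 fish). It is given as a description without a p-value, since it uses brain values of 36 and 42 months. The r was 0.664 without the 2 fish farthest from the median, and 9 of 13 fish lay on the same side of their group mean in both tissues. The r over all 20896 genes had a median of 0.203, and 12.0 percent of the genes were at or above 0.617. Between skin and liver r was 0.671 (17 fish, rho = 0.713, exact permutation of the fish within age, 2-sided p = 0.0141 and 0.0145, adjusted p = 0.0847 and 0.0869 over the 12 relations computed), so that it did not pass the threshold, and it was 0.541 without the 2 farthest fish, with 4.47 percent of genes at or above it. The 12 relations include those with brain, whose p-values entered the adjustment but are not given. Between skin and liver r was -0.108 over the 10 fish left without the libraries high in intestine markers. Between brain and liver r was 0.028 and rho 0.05 (9 fish), again given without a p-value.

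Of the other 3 members none had a relation between skin and liver past the threshold. The r of ciita between skin and liver was 0.51 (17 fish, rho = 0.566, exact permutation p = 0.0636 and 0.0396, adjusted p = 0.254 and 0.158). That of cd74a was 0.139 and that of cd74b 0.014, with an adjusted p of 0.906 each by exact permutation. With brain, the r of these 3 members lay between -0.357 and 0.196 and is given without a p-value. In the 12-month fish with high mhc2dab in all 3 tissues, cd74a in skin was at 1170 CPM, within the range of its group. Brain-to-skin pairs held no 6-month fish, since those brains were pools.

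**Figure D4:**
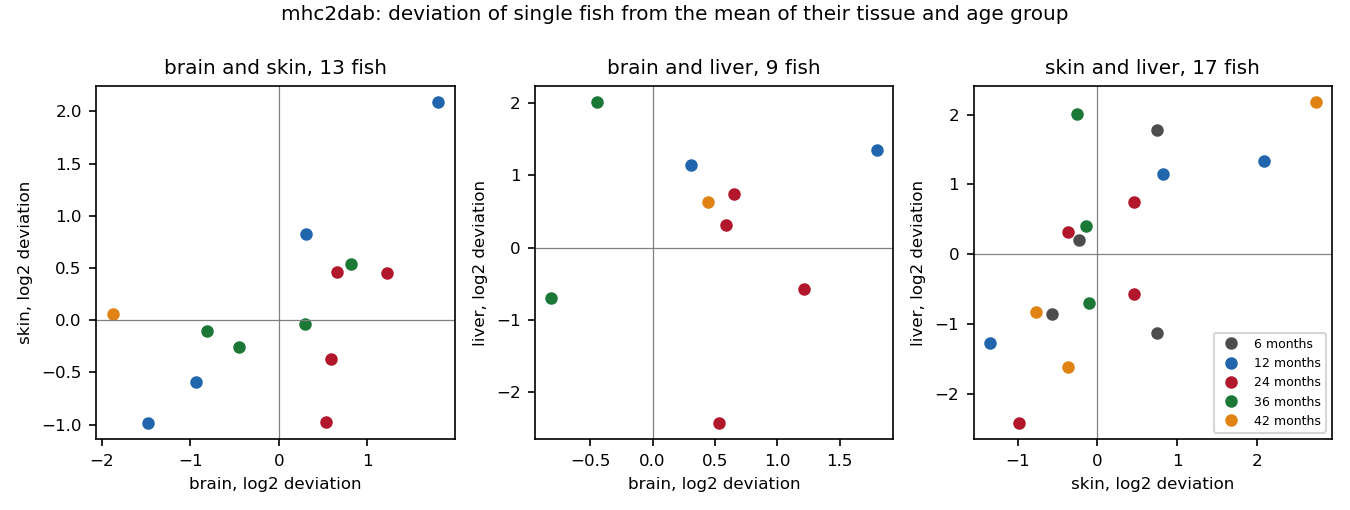
Log2 deviation of mhc2dab from the mean of its tissue and age group, 1 tissue on each axis, for the fish that gave both tissues; points are single fish coloured by age. In brain and skin the 13 fish had r = 0.617, in skin and liver the 17 fish had r = 0.671, and in brain and liver the 9 fish had r = 0.028.

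The other genes with an mhc2 symbol, 9 in all, were compared with mhc2dab. Among near copies reads can be assigned to the wrong one, and only reads that match the one reference genome are counted, so that the level of a single copy is uncertain. The genotype of the fish was not analysed here. mhc2daa (ENSDARG00000031745), which encodes a class II alpha chain, was high in the same skin fish as mhc2dab at 12 and 42 months. It was not at 6 months, where the fish with 86.3 and 86 CPM of mhc2dab had the lowest mhc2daa, 95.7 and 95.3 CPM. In skin it had 173.4, 95.7, 132.8, 95.3 and 164.3 CPM at 6 months, 111.4, 85.8, 81.9, 351.6 and 92.6 CPM at 12 months and 162.1, 70.3, 114.4, 1075 and 103.2 CPM at 42 months. The high value at 12 and at 42 months was replicate 4 each time, the fish that was high in mhc2dab. At 24 months it had 217.4 to 541.8 and at 36 months 549.6 to 1090 CPM, both wholly above 6 months.

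mhc2bl (ENSDARG00000074510) showed the same fish in a gene that was close to 0 elsewhere. In skin it had 0.114 to 0.423 CPM at 6 months, and at 12 months 0.435, 0.364, 0.391, 9.39 and 0.33 CPM. It had 3.85, 6.25, 5.45, 4.56 and 13.9 CPM at 24 months and 40.8, 23.3, 30.9, 23.6 and 25.5 CPM at 36 months, with no overlap between these ages or with 6 months. At 42 months it had 0.534, 0.234, 0.993, 34.2 and 0.163 CPM, so that replicate 4 was again alone at the level of the 36-month fish. In brain at 42 months the reads of mhc2bl were 0, 11, 34, 0 and 85, and the 2 fish with none were those with 9.59 and 10.9 CPM of mhc2dab. At 12 months the reads in brain were 1, 1, 0, 37 and 1, with replicate 4 high as for mhc2dab. At 24 months they were 1, 32, 8, 29 and 15, and the fish with 1 read was that with 4.17 CPM of mhc2dab.

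Across libraries of a tissue, mhc2daa had an r of log2 CPM with mhc2dab of 0.861 over brain, 0.866 over liver and 0.894 over skin libraries, and mhc2bl one of 0.897, 0.788 and 0.886. Over deviations from the age means it was 0.790, 0.804 and 0.714 for mhc2daa and 0.836, 0.681 and 0.716 for mhc2bl. Not all copies shared the pattern. For mhc2d8.46a the r with mhc2dab in skin was -0.031, and -0.224 within ages. These values are over the 25, 23 and 25 libraries of brain, liver and skin, which share fish and depth, and are a description.

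Beside 7.81 percent of all genes called higher in old against young in skin, 3 of 8 other mhc2 genes tested rose and 0 fell. These were mhc2bl with 5.66 on the log2 scale (SE 1.32, adjusted p = 0.00666), mhc2daa with 1.89 (SE 0.54, adjusted p = 0.0213) and mhc2d8.37a2 with 3.09 (SE 1.02, adjusted p = 0.0434, all edgeR). Without skin 42 months replicate 4 these values were 3.70, 1.17 and 1.33. Over the 15 fits that left out 1 library, the call of mhc2bl was lost in 0, that of mhc2daa in 2 (without replicate 2 or 4 of 6 months, adjusted p up to 0.0633) and that of mhc2d8.37a2 in 9, among them that without replicate 4 of 42 months (adjusted p up to 0.171, edgeR). At 36 months 4 rose, beside 10.1 percent of all genes called higher. The 4 were mhc2bl at 6.66 (adjusted p = 0.00265), mhc2daa at 2.58 (adjusted p = 0.00505, both edgeR) and mhc2d8.37a1 and mhc2d8.37a2 at 3.87 and 4.19. In skin mhc2d8.37a1 had 0 to 3 reads per library at 6 months and 28 to 40 at 36 months. It passed the filter on low counts mainly through the 36-month group, so that nothing is read from its call or its place in this count. At 24 months mhc2bl rose by 4.58 (adjusted p = 0.0179) while mhc2d8.46a fell by 3.2 (adjusted p = 0.00283) and mhc2dbb fell by 1.37 (adjusted p = 0.0425, all edgeR), so that copies moved in both directions. Of the 8 tested 1 rose and 2 fell there, beside 9.49 percent of all genes called lower.

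**Figure D5:**
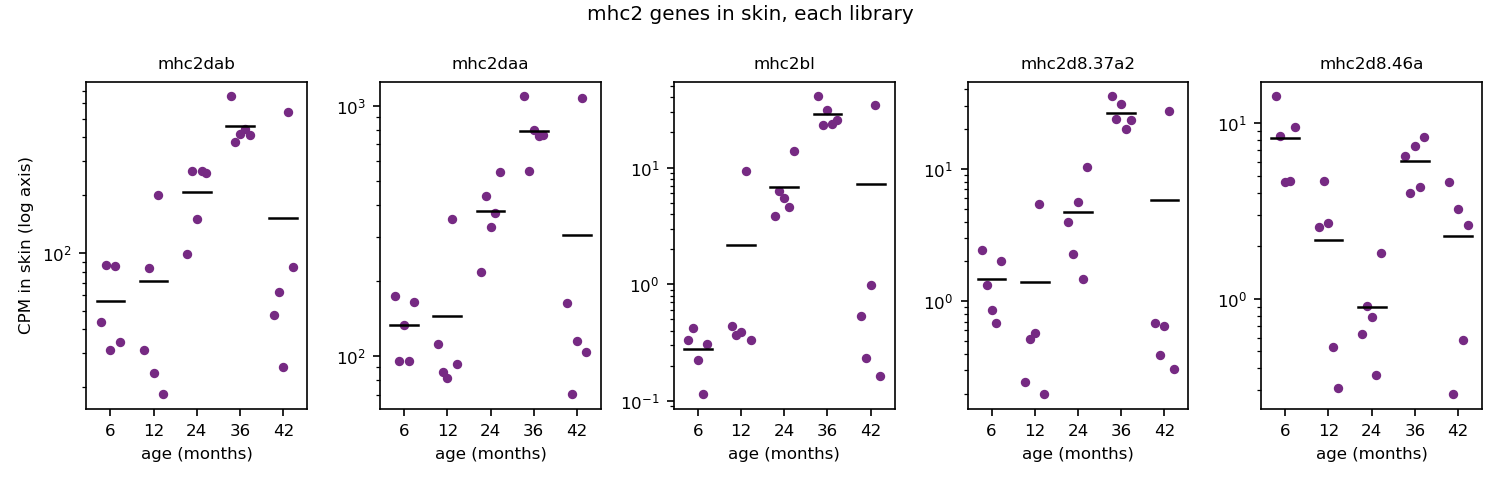
Levels of mhc2dab and 4 other mhc2 genes in each skin library, in CPM on a log axis that differs between panels, by age in months; bars are group means. In mhc2dab, mhc2daa, mhc2bl and mhc2d8.37a2 1 library of 12 months and 1 of 42 months stand far above their groups, for mhc2bl at 9.39 and 34.2 CPM.

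Among themselves, the members formed 1 tight pair. Between cd74a and cd74b the r of log2 CPM was 0.911 over brain, 0.951 over liver and 0.967 over skin libraries, and 0.945, 0.961 and 0.952 within ages. mhc2dab stayed apart from them in skin, with an r of -0.033 with cd74a and -0.374 with ciita (0.093 and 0.061 within ages). In brain and liver its r with cd74a was 0.513 and 0.633, and within ages 0.632 and 0.561. ciita and cd74a had 0.374, 0.772 and 0.531 in brain, liver and skin, and 0.617, 0.802 and 0.212 within ages.

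The 5 genes most like each member were sought among 7623 genes expressed in all tissues, by the mean over the tissues of the r of log2 CPM across libraries. For ciita the first was irf1b (mean r 0.713), which encodes an interferon regulatory factor, followed by ptpn22, ogfrl2, cd74b and ctsc, the gene of a cathepsin. Within ages its r with irf1b was 0.654 over brain, 0.95 over liver and 0.801 over skin libraries. For cd74a the first after cd74b (0.943) were wasa, jak3, ptpn22 and grap2b, with 0.736 to 0.771, genes known from blood cells in mammals. Within ages their r with cd74a was 0.73 to 0.903 in brain and liver but 0.04 to 0.282 in skin. For cd74b the first after cd74a was b2m (0.805), which encodes the light chain of class I molecules, with 0.753, 0.742 and 0.851 within ages.

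For mhc2dab the 5 genes were cry3 (mean r 0.611), nr1d1 (0.588), dbpb (0.561), per1b (0.551) and spice1 (0.546), of which the first 4 are genes of the circadian clock or its output. Within ages the r of these 5 genes with mhc2dab lay between -0.173 and 0.258 in all tissues, for cry3 at 0.07, 0.147 and 0.054. In skin the mean of cry3 was 42.4, 42.8, 100.5, 153.8 and 51.1 CPM from 6 to 42 months, and in brain it was 55.7 CPM at 6, 194.7 at 36 and 78.2 at 42 months. Its groups of 42 and 36 months did not overlap in either tissue, whereas those of mhc2dab did. Clock genes also differed between 6 and 24 months, where no transgene is listed. The mean of nr1d1 was 37.2 and 122.9 CPM at these ages in skin and 26.3 and 177.4 CPM in brain. The fits hold no term for time of collection or batch, and their part in 24 against 6 months was not tested. mhc2daa did not enter this search, since it carries a provisional symbol in the table.

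Of the partners of the class II pathway, most were not called in skin at 24 months. Those that were called mostly fell, in a comparison where 9.49 percent of all genes were called lower. Among 9 genes of the factors that bind class II promoters, 1 rose and 2 fell at 24 months. rfxap, a subunit of RFX, fell by 0.74 (adjusted p = 0.00208), nfybb, a subunit of NF-Y, fell by 0.50 (adjusted p = 0.00839) and creb1a rose by 0.40 on the log2 scale (adjusted p = 0.0115, all edgeR). The median log2 fold change of the 9 was 0.005, beside -0.004 over all genes tested. At 36 months rfxap was higher by 0.64 (adjusted p = 0.00564, edgeR), the opposite of its sign at 24 months. In old against young 1 of 9 rose, creb1b by 0.74 (adjusted p = 0.0228, edgeR), and 0 fell, beside 7.81 percent of all genes called higher.

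Of 13 endosomal proteases and related genes tested in skin, 0 rose and 3 fell at 24 months, with a median of -0.25. Over all genes 9.49 percent were called lower. ctss2.2, a cathepsin S gene, fell by 1.12 (adjusted p = 0.00145) and ctsh, the gene of cathepsin H, fell by 1.21 (adjusted p = 0.00331, both edgeR). In mammals cathepsin S cuts the invariant chain. In old against young 1 of the 13 rose and 1 fell, beside 7.81 percent of all genes called higher. These were ctss1, which rose by 0.89 (adjusted p = 0.0178), and ctsh, which fell by 0.88 (adjusted p = 0.0114, both edgeR). Of 13 genes of the interferon gamma axis tested, 0 rose and 3 fell at 24 months (median -0.30), beside the same 9.49 percent. Among the 3 were irf1a, lower by 2.30 (adjusted p = 0.00674), and ifng1-1, an interferon gamma gene, lower by 1.98 (adjusted p = 0.0426, both edgeR). irf1a was lower in old against young too, with -2.48 (adjusted p = 0.00111, edgeR), as the 1 gene of the 13 called there.

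Class I presentation, which shows peptides from inside the cell, moved with the invariant chains at 24 months. Of 26 genes tested in skin 10 fell and 1 rose, with a median log2 fold change of -0.41, beside 9.49 percent of all genes called lower. tap2a, a peptide transporter, fell by 1.5 (adjusted p = 1.7e-04), b2ml fell by 0.68 (adjusted p = 7.9e-04) and calr, a chaperone, rose by 0.60 (adjusted p = 0.0152, all edgeR). In old against young 2 rose and 2 fell, beside 7.81 percent of all genes called higher. Among them were mhc1zaa at 1.03 (adjusted p = 4.6e-04) and mhc1uba at -2.30 (adjusted p = 0.0212, both edgeR). Of 5 costimulatory genes 2 rose at 24 months, cd276 by 0.95 (adjusted p = 4.2e-04) and cd83 by 1.35 (adjusted p = 0.0154), and cd40lg fell by 1.15 (adjusted p = 0.00978, all edgeR). The median of the 5 was 0.42, beside -0.004 over all genes tested. The 9.49 percent above is the share called lower. That called higher at 24 months is not given here, so that nothing is read from the count of costimulatory genes that rose. cd83 was higher in old against young as well, by 1.38 (adjusted p = 0.0102, edgeR).

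In brain, old against young was used to choose the members, so that the partners are described there without a test. The median log2 fold change was 0.48 over 26 class I genes, 0.32 over 13 endosomal genes and 0.745 over 5 costimulatory genes. It was 0.18 over 9 promoter factors and 0.26 over 10 genes of the interferon gamma axis, beside -0.012 over all genes. In liver at 24 against 6 months, 1 gene of the interferon gamma axis was lower, stat1b with -2.87 (adjusted p = 0.0389, edgeR), beside 3.55 percent of all genes called. In brain at 24 against 12 months 8.55 percent of all genes were called. Of 9 promoter factors 2 were lower, rfxap by 0.23 (adjusted p = 0.0159) and nfyba by 0.20 (adjusted p = 0.0457, both edgeR). Of 10 genes of the interferon gamma axis 1 was lower, ifngr2 by 0.41 (adjusted p = 0.0428, edgeR). Of 26 class I genes 1 was higher, tap2b by 0.39 (adjusted p = 0.0316, edgeR). Of 13 endosomal and 5 costimulatory genes 0 were called. Between skin and brain at 24 months, 26 of 27 class I genes, 8 of 13 endosomal genes, 9 of 14 genes of the interferon gamma axis and 8 of 8 other mhc2 genes were higher in skin, beside 34.3 percent of all genes. The promoter factors were not, with 2 of 9 higher and 4 lower.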

How the data were processed

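Per the study's methods and the submitters' processing notes, TruSeq RNA libraries were sequenced single-end on HiSeq instruments, base calls were extracted with CASAVA 1.8.0, and reads were mapped with TopHat 2.0.6 to Zv9 and counted with HTSeq or featureCounts. The kit does not mark strand, so that overlapping and antisense genes are uncertain. The authors deposited whole-number counts per gene, and RPKM values that they computed from those counts. Counts that passed filterByExpr, scaled by TMM factors, were tested with the robust quasi-likelihood fit of edgeR 4.0.16 (R 4.3.3), 2-sided, with Benjamini-Hochberg adjustment over all genes of a fit at 0.05. Each tissue was fitted with its 5 ages as groups, and 1 fit of 15 groups over 73 libraries served the comparisons between tissues. CPM use TMM-scaled totals, and log2 CPM a prior count of 2. Alternatives were RLE size factors, no filter, DESeq2 1.42.0, limma 3.58.1 voom, a fit of 6, 36 and 42 months, a straight line over age, a block for the fish and leaving out each library. The split of liver by intestine markers was added after seeing the data. Samples share a fish by the labels. With the fish as a block the consensus correlation was 0.126. For relations between tissues, fish were permuted within age (SciPy 1.17.1, Python 3.11.15), and p-values are given for skin and liver only.

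The members and all gene lists were chosen with earlier results of these data known. Named genes are the members, the other mhc2 genes, at most 2 genes per direction, list and comparison with the smallest p, and the 5 genes most like each member. The gene table of assembly GRCz12tu was used for names, of which 21028 IDs were found, and no sequence is shown. The test of old against young in skin was checked on simulated counts, with the same relative spread for all genes. This check does not cover genes as variable as mhc2dab, nor liver or brain. Libraries of a group are single fish, or pools in the 6-month brain, so that errors cover the spread between these fish.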

Additional observations from a re-analysis of the deposited data

Results flagged for a closer look

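In 8 of 60 groups of a member in a tissue and age, 1 library was far from the rest by Dixon's criterion. It is met in about 5 percent of groups if values are independent and normally distributed. All 8 libraries were the highest of their group, and members share libraries, so that nothing is read from the count. For mhc2dab, brain 12 months replicate 4 had 48.92 CPM (the next 17.39), liver 36 months replicate 1 97.77 (32.04), liver 42 months replicate 3 91.86 (31.15), skin 36 months replicate 1 653.3 (439.3) and skin 42 months replicate 4 539.1 CPM (84.13). For the invariant chains, cd74a in brain 36 months replicate 1 had 637.1 CPM (the next 415.8), and skin 24 months replicate 5 had 1564 CPM of cd74a (922.6) and 810.1 CPM of cd74b (460.1). The libraries with high mhc2dab in skin and liver at 42 months came from 1 fish. The brain library with high cd74a at 36 months and the skin library with high mhc2dab at that age came from 1 fish as well.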

How the results depend on the processing

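Over the alternatives that change a setting, 276 of 304 values kept their direction and call or count, and over those that leave out 1 library 533 of 576 did. The cause of the changes was not tested. On the log2 scale, signs turned for mhc2dab in skin at 12 months with limma voom (-0.136), cd74b in skin on a straight line over age (0.015) and ciita in liver at 24 months with RLE factors (-0.043) and DESeq2 (-0.044). At 24 months, ciita in skin against brain was not called with RLE factors (0.919), nor cd74a in liver against brain with RLE factors (0.791), limma voom (0.732) or the fish as a block (0.694), while cd74b in skin against liver was called with limma voom (1.079) and the block (1.093). For skin minus liver in old against young, mhc2dab was -0.130 with the block, -0.103 with limma voom and -1.272 without the 9 liver libraries high in intestine markers, and ciita (-3.067), cd74a (-2.178) and cd74b (-2.368) were called without those. The block changed no other call. Without these 9 libraries the r of single fish was -0.141 for mhc2dab in brain and liver, and in skin and liver -0.108 for mhc2dab, -0.173 for cd74a and -0.161 for cd74b. The last was -0.077 on RPKM, and ciita in brain and liver had 0.014 with the 6-month pools.

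Leaving out 1 library gave ranges that crossed 0 for mhc2dab in skin at 12 months (-0.539 to 0.583) and 42 months (-0.040 to 1.701), cd74b in skin at 36 months (-0.120 to 0.095), mhc2d8.37b2 in skin in old against young (-0.296 to 0.205), ciita in liver at 12 months (-0.324 to 1.019) and 24 months (-0.336 to 0.568) and cd74a in brain at 24 against 12 months (-0.040 to 0.175). Among the main comparisons of the members, calls changed within the ranges of old against young in skin for mhc2dab (1.493 to 2.412) and ciita (-1.078 to -0.581), of ciita in skin against brain (0.687 to 1.184), of liver against brain for mhc2dab (1.369 to 2.476), cd74a (0.458 to 1.111) and cd74b (0.832 to 1.483) and of cd74b in skin against liver (0.576 to 1.220). The call of ciita in old against young was reached only without 6 months replicate 3 (adjusted p = 0.0454, edgeR). mhc2dab in liver at 24 months was called without replicate 1 of that age (adjusted p = 0.0435, edgeR), and ciita in skin at 36 months in 2 such fits.

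Over all genes, counts of calls moved by over 1.5 times in skin at 42 months (1809, and 2855 with DESeq2) and in liver. There edgeR called 8, 748, 18 and 22 genes at 12, 24, 36 and 42 months and 40 in old against young, and DESeq2 130, 2309, 477, 778 and 642. Without the 9 libraries 418 were called at 24 months, and 3251 in place of 743 for skin minus liver, where limma voom called 262. A limit of 2000 CPM over all intestine markers, planned for the liver, was not run, since all 23 liver libraries exceeded it (7072 to 38770 CPM). Groups of 4 or 5 fish and the wide spread of liver limit what the tests can show there.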
